A study of Homo sapiens with 6 samples.

Results

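The mRNA of XBP1 was followed through an eCLIP experiment on the protein Angel1, together with ERN1, RTCB, DDX1, ANGEL1 and ANGEL2. The products of these genes take part in cutting RNA or in joining or processing its cut ends, in XBP1 splicing or outside it. The 6 genes were picked by name for these roles, and their clusters of reads are those that overlapped a gene window on GRCh37 by at least 1 nt on the strand of the gene. There were 126 such clusters of 205520 in all, of which the control IP had 3 (of 5717), FLAG-Angel1 replicate 1 had 52 (of 102843) and FLAG-Angel1 replicate 2 had 71 (of 96960).

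In eCLIP, proteins are cross-linked to RNA by UV light in living cells, the fragments that come down with a precipitated protein are sequenced (the IP), and lysate of the same fragment sizes is sequenced without precipitation (the input). All libraries came from Flp-In T-REx HEK293, a line of human embryonic kidney cells with 1 site for tetracycline-regulated constructs, after 24 h with 5 ng/mL tetracycline and 400 mJ/cm2 of UV light at 254 nm. FLAG-Angel1 was expressed from an integrated transgene that holds the ANGEL1 coding region, in cells that also keep their own ANGEL1 gene, with the dose of tetracycline chosen to bring the protein close to its natural level. IP and input were sequenced for 2 FLAG-Angel1 replicates and for 1 control. The control libraries are titled FLAG-only, but their genotype label is FLAG-Angel1. The methods describe control cells with no FLAG-tagged fusion protein. The methods also mention a sample without UV light, which the labels mark on none of the 6 libraries. Whether the replicates came from separate cultures is not stated.

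XBP1 encodes a transcription factor of the unfolded protein response whose mRNA is spliced outside the nucleus. The endoplasmic reticulum sensor IRE1, the product of ERN1, cuts a short intron out of the mRNA, and the tRNA ligase RTCB, with the helicase DDX1 in its complex, joins the exons. The cut leaves a 2′,3′-cyclic phosphate at an RNA end, the substrate of RTCB, and ANGEL2 and ANGEL1 are phosphatases that can remove this group. The 6 genes were therefore read as 1 splicing substrate (XBP1), its endonuclease (ERN1), its ligase and helicase (RTCB, DDX1), and the phosphatases (ANGEL1, the tagged protein itself, and ANGEL2).

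For every cluster the authors gave a log2 fold of IP reads over input reads and a P for that enrichment, not adjusted for the number of clusters. A cluster is called enriched below when its P was under 0.05 and its log2 fold above 0. The lists hold no read counts, but the log2 folds and P returned whole numbers of reads. These placed the library sizes at 209788 IP and 3249250 input reads in the control, 3396701 and 722085 in replicate 1, and 2543630 and 2812210 in replicate 2. The sizes set what can be called. Over an input value of 1, which may also stand for an input of 0 reads, an enriched call began at 2 IP reads for the control, 27 for replicate 1 and 7 for replicate 2. In the same order, the background share of enriched clusters was 91.8%, 11.7% and 40.7%, and all clusters of a library had a median log2 fold of 5.20, 0.57 and 1.73. Log2 folds of different libraries are therefore not on 1 scale. Intervals of log2 folds given below are exact 95% binomial intervals from the recovered reads, which cover counting error only, and no test was made between libraries.

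The 6 genes divided into ANGEL1 and the rest. ANGEL1 had 22 of 24 clusters enriched in replicate 1 (91.7%, Wilson 95% interval 74.2 to 97.7) and 36 of 36 in replicate 2 (100%, 90.4 to 100), against the backgrounds of 11.7% and 40.7%. The 5 other genes together had 1 of 28 in replicate 1 (3.57%, 0.633 to 17.7) and 7 of 35 in replicate 2 (20.0%, 10.0 to 35.9). As a pool, the other genes were under the background share, though in replicate 1 the interval includes it. Many of these clusters were too shallow to be called. Of those with recovered reads, 12 of 16 in replicate 1 had fewer than 27 IP reads, and 18 of 32 in replicate 2 fewer than 7. The lower share therefore does not show a lack of enrichment. Single genes had higher shares: XBP1 with 3 of 4 and RTCB with 4 of 7 in replicate 2, and DDX1 with 1 of 3 in replicate 1. Their intervals (30.1 to 95.4%, 25.0 to 84.2% and 6.15 to 79.2%) all include the background, so these genes cannot be told apart from it. Intervals of shares count each cluster as independent, and since abutting clusters can rest on the same reads, they are too narrow. At the stricter threshold of 0.001, with backgrounds of 4.22% and 17.0%, ANGEL1 held 14 and 36 enriched clusters and the 5 other genes 1 and 1. The median log2 fold of the ANGEL1 clusters was 2.16 in replicate 1 and 2.97 in replicate 2. That of the 5 other genes was 0.62 and 1.28, near the library median in replicate 1 and under it in replicate 2.

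**Figure D1:**
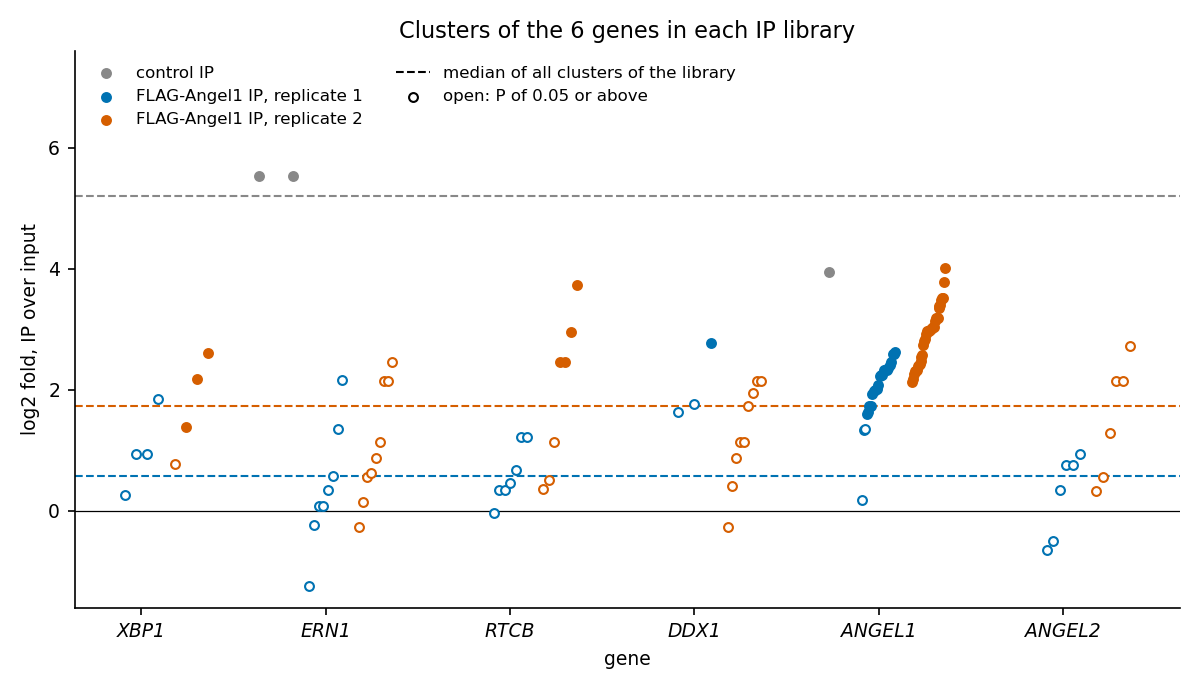
Log2 fold of IP over input (vertical axis) of every cluster in the 6 genes (horizontal axis), with 1 point per cluster, in the control IP (grey) and FLAG-Angel1 replicates 1 (blue) and 2 (orange). Filled points are enriched, and dashed lines mark the median of all clusters of each library (5.20, 0.57 and 1.73). ANGEL1 is filled for 22 of 24 and 36 of 36 FLAG-Angel1 clusters, whereas ERN1 and ANGEL2 have no filled point in these libraries.

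ANGEL1 is the gene whose protein was tagged, so its own RNA also bears on the genotype label of the control. The ANGEL1 window (chr14:77253586-77279283, minus strand) held 1 control cluster, 24 clusters of replicate 1 and 36 of replicate 2. The control cluster, at chr14:77273090-77273140, had 3 IP and 3 input reads, or 0.923 input reads per 1000000 reads of the library (RPM). The clusters over the same place had 11 input reads in replicate 1 and 30 in replicate 2, or 15.2 and 10.7 RPM. The inputs of FLAG-Angel1 cells thus held 16.5 and 11.6 times the RPM of the control input there, over clusters of 84 and 134 nt against 51 nt. The control input had the lowest value, but it rests on 3 reads, and these ratios are not scaled to cluster width. How far it lay below the FLAG-Angel1 inputs is therefore uncertain, and no interval of the ratios was computed. RNA of the transgene and RNA of the cell's own ANGEL1 gene cannot be told apart in these lists.

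At this place ANGEL1 was enriched over the input of its own library in both FLAG-Angel1 replicates, and also in the control. The same place had 173 IP reads in replicate 1 (50.9 RPM) and 309 in replicate 2 (121 RPM) against 3 in the control (14.3 RPM). Relative to the input of each library, the log2 fold was 1.74 (0.87 to 2.77) in replicate 1 and 3.51 (2.97 to 4.10) in replicate 2. The control gave 3.95 (1.05 to 6.85), which lay below the median of 5.20 over all control clusters, and 30.6% of the clusters of that library were lower. The control cluster was enriched at 0.05 but not at 0.001, where the background of its library was 64.5%. With 3 reads on each side, the control cannot show whether ANGEL1 RNA was less enriched in it than in the FLAG-Angel1 libraries.

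The 24 and 36 ANGEL1 clusters lay in 10 blocks, taking clusters up to 100 nt apart as 1 block, and each block was present in both replicates. The blocks spanned 70 to 503 nt each and 1869 nt in all, which was 7.27% of the 25698 nt window. The spaces between them were 304 nt at the narrowest and 12004 nt at the widest, the latter between the seventh and the eighth block from the 5′ end. The first block began 101 nt from the 5′ end, and the last cluster ended 2024 nt (replicate 1) and 1995 nt (replicate 2) before the 3′ end. Most edges of the blocks lay close together in the replicates. Of 20 edges, 8 were at the same base and 13 within 2 nt, with a median difference of 1 nt. The other 7 edges differed by 7 to 328 nt. The largest difference was in the fifth block, where clusters covered 106 nt in replicate 1 and 376 nt in replicate 2, and the next was 88 nt, in the sixth block. For comparison, RTCB had 5 of 12 edges within 2 nt, ANGEL2 3 of 8, DDX1 2 of 4, ERN1 1 of 6 and XBP1 0 of 4. Block edges were not computed over all clusters. A related share is that of overlapping cluster pairs with an edge at the same base. It was 25.0% in ANGEL1 (6 of 24 pairs), 12.5% in the 5 other genes and 14.2% over all clusters. In ANGEL2 it was also 25.0%, from 1 of 4 pairs. Where the blocks lie relative to the exons of ANGEL1 was not analysed here.

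Reproducible peaks, taken as overlapping clusters with P under 0.001 and a log2 fold above 0 in both replicates, numbered 9 in ANGEL1 of 2243 in the whole data (0.401%). None of the other genes had one. At the threshold of 0.05, ANGEL1 had 13 of 6843 and the 5 other genes again 0. The peak nearest the 5′ end, chr14:77279107-77279182, had 284 IP and 15 input reads in replicate 1, a log2 fold of 2.01 (1.26 to 2.87). Replicate 2 had 297 and 41 reads there, an 8.01-fold enrichment (2.53 to 3.51 on the log2 scale). It was the single cluster of its block in both replicates, and the intervals overlap.

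The second block held the widest ANGEL1 peak and the most IP reads of any ANGEL1 cluster in both replicates. At chr14:77275484-77275782 replicate 1 had 1 cluster of 275 nt with 515 IP and 20 input reads, a log2 fold of 2.45 (1.81 to 3.18) and a −log10 P of 16.1. Replicate 2 divided the same stretch into 2 clusters with 342 and 216 IP reads over 65 and 30 input reads, with log2 folds of 2.54 and 2.99. Just upstream, chr14:77275821-77275986 reached log2 folds of 2.63 in replicate 1 and 3.18 in replicate 2. In both peaks the higher log2 fold was that of replicate 2.

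The next blocks held smaller peaks with log2 folds of the same order. At chr14:77274265-77274385 the highest log2 folds were 2.60 in replicate 1 and 4.01 in replicate 2, the latter the highest of all ANGEL1 clusters in replicate 2 from 73 IP and 5 input reads (2.73 to 5.68). The peak at chr14:77273776-77273845 reached 2.37 and 2.96. The peak at chr14:77273059-77273192, which covers the control cluster, reached 2.33 and 3.51 and had the highest −log10 P of the gene in replicate 2, 57.2. It was the 1 reproducible peak of the 9 that overlapped a control cluster. Further along the gene, chr14:77269714-77269824 reached 2.25 and 3.18.

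The 2 reproducible peaks nearest the 3′ end had the lowest maximum log2 folds of the 9 in replicate 2, though not the largest P. They reached log2 folds of 2.33 and 2.39 at chr14:77257640-77257699, and of 2.00 and 2.32 at chr14:77257074-77257117. In replicate 1 the second of them rested at 0.001 on 1 cluster of 5 nt (113 IP and 6 input reads), and it overlaps the cluster with the lowest ANGEL1 log2 fold of that library. That cluster, at chr14:77256973-77257085, had 223 IP reads but also 42 input reads, a log2 fold of 0.17 (-0.31 to 0.69). Its 42 input reads were 58.2 RPM, where the input of replicate 2 reached 14.6 RPM in that block, and the other ANGEL1 cluster that was not enriched had 60 IP and 5 input reads (log2 fold 1.35, 0.05 to 3.03).

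Between the replicates, 24 of 24 ANGEL1 clusters of replicate 1 (100%) and 29 of 36 of replicate 2 (80.6%) were overlapped by a cluster of the other. In all clusters these shares were 52.6% and 54.6%, and in the 5 other genes 57.1% and 48.6%. These overlaps needed only 1 nt. With a reciprocal overlap of 50% the shares were 54.2% and 36.1% in ANGEL1 and 39.3% and 31.4% in the 5 other genes. The share over all clusters was not computed at this setting, so ANGEL1 cannot be compared with the libraries there. In 23 of the 24 ANGEL1 pairs the log2 fold was higher in replicate 2, by a median of 0.69 (SD 0.656 over pairs), and in 2 pairs the counting intervals did not overlap. The same direction held for 43978 of 54100 pairs over all clusters, with a median difference of 1.10 (SD 1.25), so the ANGEL1 difference is no larger than that of the libraries. The 16 pairs of the 5 other genes had a median difference of 0.33 (SD 1.57), with 10 higher in replicate 2, and the intervals overlapped in each of the 12 pairs that had them.

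**Figure D2:**
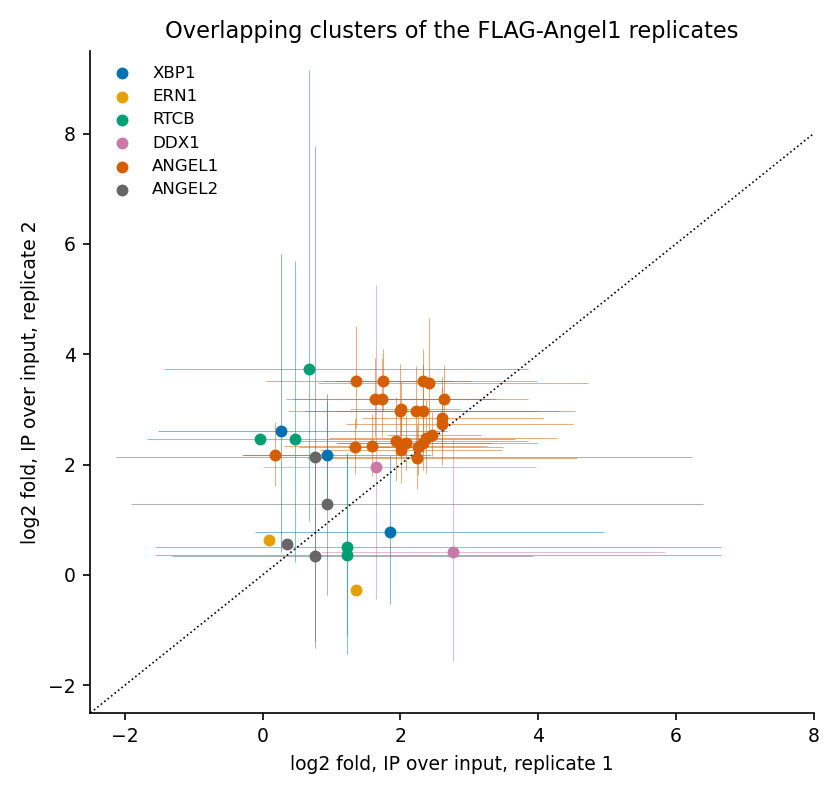
Log2 fold of IP over input in replicate 1 (horizontal axis) and replicate 2 (vertical axis) of overlapping clusters, with 1 point per pair, coloured by gene. Thin lines are 95% counting intervals where the reads of both clusters were recovered, and the dotted line marks equal values. The 24 ANGEL1 pairs sit together, 23 of them above the line, whereas the 16 pairs of the other genes scatter to both sides with wide intervals.

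XBP1, the substrate of the splicing reaction, had 4 clusters in each FLAG-Angel1 replicate and none in the control, within a window of 6013 nt (chr22:29190548-29196560, minus strand). They covered 6.49% of the window in replicate 1 and 7.30% in replicate 2. ANGEL1 was covered to a like extent, 4.95% and 6.73%. XBP1 was enriched in none of its 4 clusters in replicate 1 (background 11.7%) and in 3 of 4 in replicate 2 (Wilson 95% interval 30.1 to 95.4%, background 40.7%), and no XBP1 region was enriched in both.

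The XBP1 clusters with the most IP reads lay at the very 5′ end of the gene. In replicate 1, the cluster at chr22:29196395-29196554, which begins 6 nt from the 5′ end, had 54 IP and 6 input reads, 15.9 and 8.31 RPM. In replicate 2, the cluster at chr22:29196376-29196546, which begins 14 nt from the 5′ end, had 45 IP and 11 input reads, 17.7 and 3.91 RPM. The log2 fold was 0.94 (-0.28 to 2.44) in replicate 1, where the cluster was not enriched, and 2.18 (1.20 to 3.28) in replicate 2, a 4.52-fold enrichment with a −log10 P of 5.78, the smallest P of the 5 genes other than ANGEL1 in that library. The intervals overlap. In the cluster beside it, the replicates were ordered the other way, with a log2 fold of 1.85 (34 IP and 2 input reads, -0.11 to 4.96) at chr22:29196289-29196394 in replicate 1 and 0.78 (14 and 9 reads, -0.53 to 2.17) in replicate 2. The former had the smallest P of the XBP1 clusters in replicate 1, with a −log10 P of 1.12.

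The other XBP1 clusters lay in the later part of the gene. At chr22:29191275-29191355 replicate 1 had 17 IP and 3 input reads (log2 fold 0.27, -1.52 to 2.68). The overlapping cluster of replicate 2, chr22:29191257-29191320, had 11 and 2 reads and was enriched (log2 fold 2.60, 0.41 to 5.82). The 2 replicates did not share their remaining clusters. Replicate 1 had 9 IP reads over an input value of 1 at chr22:29193079-29193121 (log2 fold 0.94), and replicate 2 had 19 and 8 reads at chr22:29191539-29191658, enriched with a log2 fold of 1.39 (0.13 to 2.79). The position of these clusters relative to the intron that IRE1 removes was not analysed here, and the lists do not tell spliced from unspliced XBP1 RNA.

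**Figure D3:**
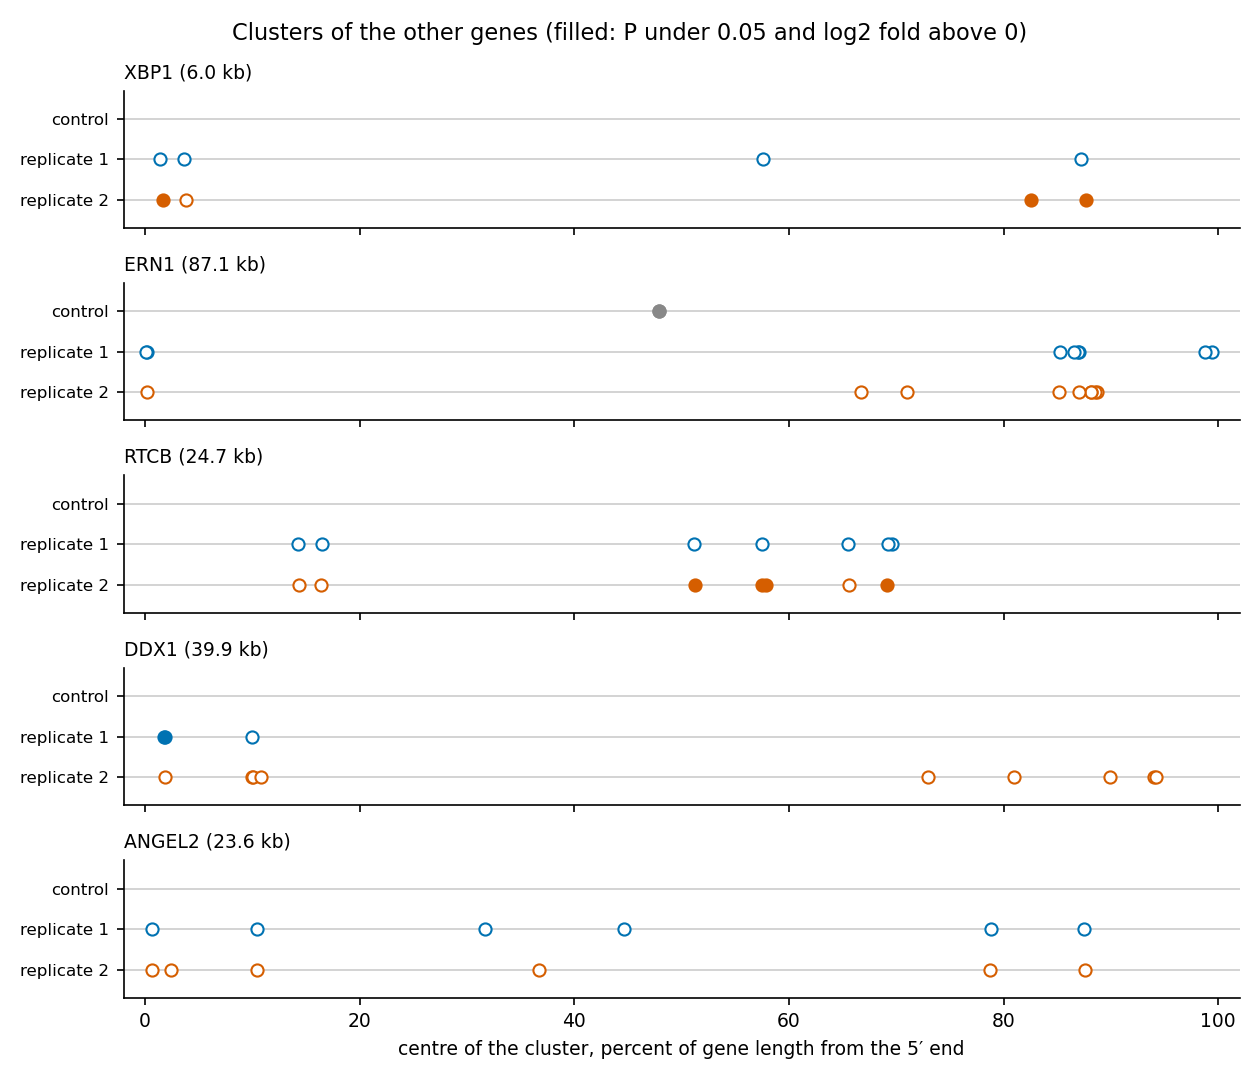
Centre of each cluster of XBP1, ERN1, RTCB, DDX1 and ANGEL2 as percent of gene length from the 5′ end (horizontal axis), in the control, replicate 1 and replicate 2 (rows). Filled points are enriched clusters, and the 2 control clusters of ERN1 abut and show as 1 point. XBP1 has 3 and RTCB 4 filled points in replicate 2, DDX1 has 1 in replicate 1, and no place is filled in both replicates.

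ERN1, which encodes the endonuclease IRE1, was the widest window at 87149 nt (chr17:62120354-62207502, minus strand) and the one with the fewest clusters per length in replicate 2. It had 8 clusters in replicate 1 and 9 in replicate 2, or 0.918 and 1.03 per 10 kb, and none was enriched. The log2 folds ran from -1.23 to 2.16 in replicate 1 (median 0.22) and from -0.27 to 2.47 in replicate 2 (median 0.88). The smallest P in replicate 1 belonged to a cluster beginning 3 nt from the 5′ end, chr17:62207389-62207499, with 21 IP reads over an input value of 1 (log2 fold 2.16, -0.48 to 7.53). In replicate 2 it belonged to chr17:62145632-62145652, with 5 IP reads over an input value of 1 (2.47, -0.69 to 8.03). Both counts were short of the 27 and 7 IP reads at which a call began. In each replicate, 6 of these clusters lay beyond 75% of the gene length from the 5′ end.

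The 2 ERN1 clusters of the control were of another kind. They abutted at chr17:62165752-62165755 and chr17:62165756-62165770, 41732 nt from the 5′ end, and each had 3 IP reads over an input value of 1. Their log2 fold of 5.54 (1.90 to 11.25) was close to the median of the control, 5.20, and both passed 0.001. No FLAG-Angel1 cluster overlapped them. Abutting clusters can rest on the same reads.

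RTCB, the ligase, had clusters at nearby places in both replicates, and in each replicate 5 of 7 were overlapped by a cluster of the other. Its 7 clusters per replicate (chr22:32783561-32808285, minus strand) fell into 6 blocks, each with clusters of both replicates. None was enriched in replicate 1 and 4 of 7 were in replicate 2 (57.1%, 25.0 to 84.2, background 40.7%). In replicate 1 the log2 folds ran from -0.03 to 1.23, and the 4 clusters with recovered reads had 11 to 15 IP reads, under the 27 at which a call began. The smallest P among them belonged to chr22:32804209-32804228 and chr22:32804743-32804764, each with 11 IP reads over an input value of 1 and a log2 fold of 1.23 (-1.56 to 6.65).

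In replicate 2 the RTCB cluster with the smallest P and the highest log2 fold was chr22:32794058-32794087, with 12 IP reads over an input value of 1, a log2 fold of 3.73 (0.97 to 9.15) and a −log10 P of 2.92. The overlapping cluster of replicate 1 had 15 IP and 2 input reads, a log2 fold of 0.67 (-1.43 to 3.84). The IP reads were 4.72 RPM in replicate 2 and 4.42 in replicate 1, and the input values 0.356 and 2.77 RPM. With input values of 1 and 2 reads, the 2 folds have wide intervals that overlap. The other enriched RTCB clusters had 10 to 15 IP reads over 2 or 3 input reads, with log2 folds of 2.47, 2.95 and 2.47. None of the 4 passed 0.001.

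DDX1, the helicase of the ligase complex, had 3 clusters in replicate 1 and 9 in replicate 2 (chr2:15731302-15771235, plus strand). Its 1 enriched cluster was in replicate 1, at chr2:15732001-15732075, with 64 IP and 2 input reads, a log2 fold of 2.77 (0.85 to 5.84) and a −log10 P of 3.27. In that library 97.9% of clusters had a lower log2 fold, and no other cluster of the 5 genes was enriched there. Replicate 2 had 6 IP and 5 input reads at the same place, a log2 fold of 0.41 (-1.57 to 2.46), so the IP level was 18.8 RPM in replicate 1 and 2.36 in replicate 2. The second DDX1 place in both replicates, at chr2:15735269-15735294 in replicate 1, had 44 IP and 3 input reads (log2 fold 1.64, 0.00 to 3.97). At chr2:15735282-15735319 in replicate 2, which had the smallest P of DDX1 in that library, there were 7 and 2 reads (1.95, -0.44 to 5.25). Neither was enriched. The 3 clusters of replicate 1 all lay within the first 10% of the gene length. Replicate 2 had 2 of its 9 there, and 4 beyond 75% with 4 to 6 IP reads over input values of 1 or 2.

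ANGEL2, the phosphatase related to the tagged protein, had 6 clusters in each replicate and none enriched, and none in the control (chr1:213165524-213189168, minus strand). Its highest log2 folds were 0.94 in replicate 1 and 2.73 in replicate 2, against 2.63 and 4.01 for ANGEL1. The smallest P in replicate 2 was at chr1:213188564-213188623, with 6 IP reads over an input value of 1 (log2 fold 2.73, -0.31 to 8.25). In replicate 1 it was at chr1:213188944-213189075, 93 nt from the 5′ end, with 16 IP and 2 input reads (0.77, -1.32 to 3.93), and the overlapping cluster of replicate 2 had 8 and 7 reads (0.34, -1.32 to 2.03). The windows of ANGEL2 and ANGEL1 are nearly as long, 23645 and 25698 nt. Per 10 kb, ANGEL2 had 2.54 clusters in each replicate, where ANGEL1 had 9.34 in replicate 1 and more in replicate 2.

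The depth of the clusters limits what the 5 genes can show. In replicate 1 reads could be recovered for 16 of their 28 clusters, and 4 of these reached the 27 IP reads needed over an input value of 1. In replicate 2, 14 of 32 reached the 7 reads needed. All 24 and 36 ANGEL1 clusters reached these numbers, with medians of 116 and 125 IP reads per cluster. In replicate 1, 12 of the 16 were below that number, and the reads of the remaining 12 clusters were not recovered. A cluster below the number could not be called with its reads, so the lack of a call does not show that enrichment was absent. Reads per cluster are not scaled to its width, so they do not order the genes by level.

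**Figure D4:**
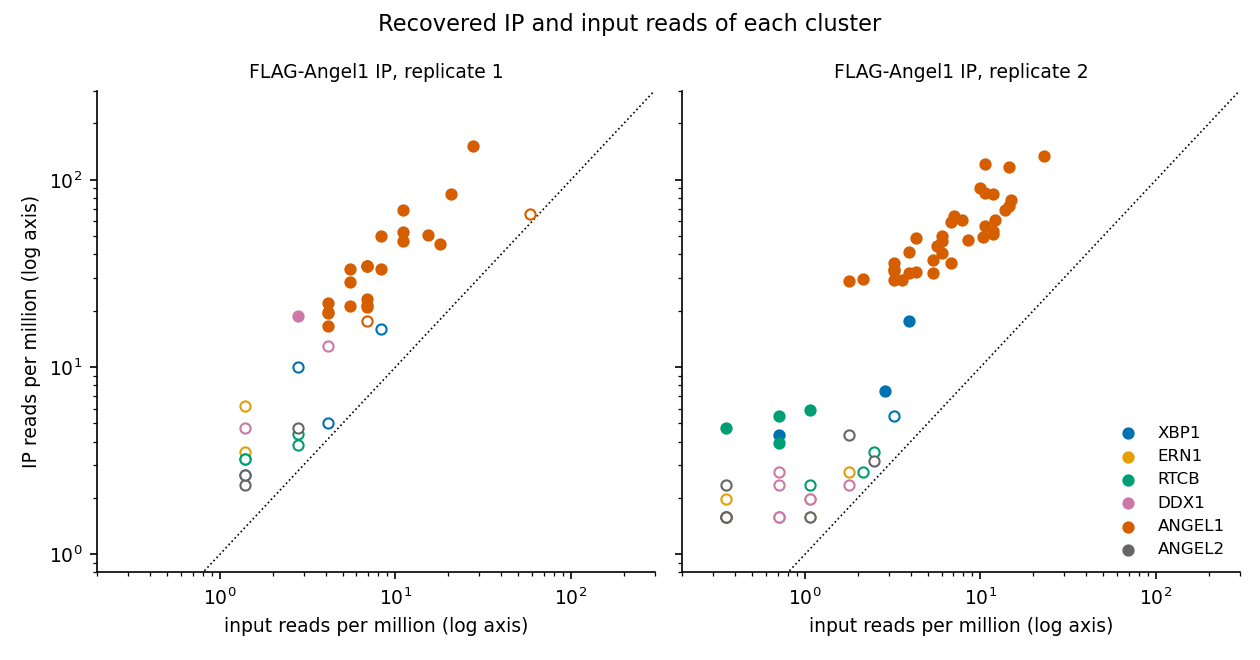
IP against input level in RPM (log axes) of each cluster with recovered reads, in replicate 1 (left) and replicate 2 (right), coloured by gene and filled where enriched. The dotted line marks equal levels. ANGEL1 clusters reach 152 and 134 RPM in the IPs, and the clusters of the other genes lie at 18.8 RPM or less.

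The 5′ ends of the genes differed in whether they carried a cluster. Each gene but RTCB had a cluster within 1000 nt of the 5′ end in both replicates. The nearest began at 6 and 14 nt in XBP1, 3 and 152 nt in ERN1, 101 and 113 nt in ANGEL1, and 93 and 110 nt in ANGEL2. The ERN1 cluster of replicate 2 had a log2 fold of -0.27, lower in the IP than in the input. In DDX1 the nearest was at 690 and 720 nt, and in RTCB at 3521 and 3533 nt. Of these nearest clusters, ANGEL1 was enriched in both replicates, XBP1 in replicate 2 alone, and the rest in neither. In DDX1 the nearest cluster of replicate 1, of 9 nt, abuts the enriched cluster that begins 699 nt from the 5′ end. On the strand opposite to the genes, the 6 windows held 0 clusters in each of the 3 IP libraries.

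Against stretches of the genome of its own length, ANGEL1 was dense in enriched clusters. Cutting the genome into tiles of 25698 nt on each strand, 30 of the 26509 tiles with a cluster in replicate 1 (0.113%) and 11 of 25223 in replicate 2 (0.0436%) held as many enriched clusters as ANGEL1. By the same measure, XBP1 with 3 enriched clusters in replicate 2 was matched by 9.98% of tiles of its length, and RTCB with 4 by 12.4%. DDX1 with 1 enriched cluster in replicate 1 was matched by 17.0%. These shares describe the libraries and are no test, since tiles were not matched for expression and do not follow the bounds of genes. Abutting clusters were counted singly. Joined, ANGEL1 had 12 and 15 enriched clusters, but neither the tiles nor the background share were recounted in that way.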

How the data were processed

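The authors mapped the reads to GRCh37, called clusters separately in each IP library with the eCLIP pipeline, and normalized each cluster to that library's own input. The deposited values are a log2 fold of IP over input and a −log10 P, which reached at most 400 and was 0 where the log2 fold was 0 or below. The submitters' processing notes name cutadapt, STAR, SAMtools and UMI-tools, with versions not given in the sources used here. The members and all lists were chosen with earlier results of these data known.

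Clusters were assigned to genes by overlap of at least 1 nt on the same strand, and positions are counted from 1. Reads were recovered as the whole numbers that return both deposited values, with Fisher's exact test where any observed or expected number was under 5 and a chi-square test with Yates' correction otherwise. Every cluster with a log2 fold above 0 and a −log10 P under 400 had at least 1 such pair, and 1 alone in 99.98% (control), 76.0% (replicate 1) and 97.7% (replicate 2). Neighbouring clusters can share reads and were not summed. The steps were tested on simulated lists. Python 3.11.15, numpy 2.4.6, pandas 2.3.3, scipy 1.17.1, mpmath 1.4.1 and matplotlib 3.10.9 were used. Clusters were named where reproducible, where they had the smallest P of a gene in a replicate, or where in the control, and others were named after their values were seen. No sequence, exon, intron or related gene was analysed here, because no genome or annotation of GRCh37 was used.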

Additional observations from a re-analysis of the deposited data

How the results depend on the processing

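Of the alternatives to the headline values, mainly for ANGEL1 and the 5 other genes as a pool, 57 stayed close and 22 moved. For the remaining values, of single genes, 92 stayed close and 8 moved. Some of these settings could not move a count. Ignoring strand changed no count, since the windows held 0 clusters on the opposite strand, and a count of 0 could not change at a stricter threshold. The numbers that stayed close therefore include comparisons that carry no information. A change such as that from 9 to 13 reproducible ANGEL1 peaks was counted as close. No median log2 fold changed sign. With P under 0.001, enriched ANGEL1 clusters fell to 0 in the control and 14 in replicate 1, the 5 other genes to 1 in replicate 2, and the share over all 6 genes in replicate 1 to 28.8%. When log2 folds also had to reach 3, ANGEL1 kept 0 in the control, 0 and 16 in replicates 1 and 2, the 5 other genes had 0 and 0 in the FLAG-Angel1 replicates, and ANGEL1 had 0 reproducible peaks. Joining abutting clusters gave ANGEL1 12 and 15 enriched clusters and the 5 other genes 1 in the control. Without ANGEL1 the share enriched went from above the background of 11.7% and 40.7% to below it, at 3.57% in replicate 1 and 20.0% in replicate 2. Requiring a reciprocal overlap of 50% lowered the overlapped share to 54.2% and 36.1% in ANGEL1. In the 5 other genes it fell to 39.3% in replicate 1 and 31.4% in replicate 2. Shares over all clusters were not computed for joined clusters, for log2 folds of at least 3 or for the reciprocal overlap. With a replicate left out and clusters of the other counted at 0.001, ANGEL1 had 14 (replicate 1 alone) to 36 (replicate 2 alone) peaks and the 5 other genes 1 to 1. No paired analysis was possible because the result comes from no test and the control has 1 library. The single control, the 209788 reads of its IP and the 722085 reads of the input of replicate 1 limit these counts, and intervals cover counting error only.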
